A study of Mus musculus with 3 samples.

Results

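Proteins made in the endoplasmic reticulum (ER) reach the Golgi in vesicles and tubules that COPII coats form at ER exit sites, and the COPI coat carries escaped ER proteins and Golgi enzymes back. Tethers, among them the TRAPP and COG complexes and the long coiled-coil golgins, hold arriving carriers before they fuse. Golgi glycosyltransferases, the sialyltransferases included, depend on this recycling to stay in their cisternae. The genes described here encode that machinery in B16 cells, a mouse melanoma line. They are the 68 of 17285 rows of the deposited count table whose symbols name COG subunits (8 genes), COPI subunits (9), the COPII coat (9) with its scaffolds and a partner (3), p24 cargo adaptors of the Tmed family (10), the Sec22 SNARE family (3), TRAPP subunits (14), golgins (6), the Golgi stacking proteins Gorasp1 and Gorasp2, the GOLPH3 family (2) and the Golga7 family (2). The rule reads symbols and no measured value, though it was written with earlier results of these data known.

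The cells were a B16 line that stably carries an empty vector (called Mock in the labels), the control line of a study whose title concerns the ganglioside sialyltransferase ST8Sia5. RNA was sequenced in 3 samples, Mock replicates 1, 2 and 3, which form 1 group, so no treatment or genotype can be compared. They come from 1 line, and the labels do not say whether they were separate cultures, so every p-value measures the spread between these samples only, which may be technical. The libraries held 9328087 to 9456501 counts after rounding, with 13192 to 13437 genes detected, and the 68 genes took 0.586% to 0.591% of the counts. The pigment cell markers Tyrp1, Dct, Pmel, Mlana, Mitf and Sox10 were all present, at 135 (Mitf) to 12337.4 (Tyrp1) CPM, where CPM scales each count to the size of its library. Of the 11 measured markers of leukocytes, fibroblasts, endothelium and epithelium, 7 had no count, 3 had 3 to 5 reads in all (Pecam1, Cd79a and Pdgfra) and Cdh1 had 33. In bulk RNA of this kind, fewer cells with a transcript and less transcript per cell cannot be told apart.

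Nearly the whole machinery was transcribed. Of the 68 genes, 64 lay above 1 CPM, 1 lay below (Tmed6), 2 were unresolved (Sec16b and Sec31b) and 1 had no count (Golga7b). The test was edgeR's quasi-likelihood F test against 1 CPM, two-sided, with an adjusted p under 0.05 over all genes with a count. Of all genes tested, 74.3% lay above 1 CPM and 20.2% below. The weakest call among the 64 was that of Copz2 (edgeR adjusted p = 1.51e-06). The most abundant member by reads was Copa, the alpha subunit of COPI, at 398 ± 2.46 CPM, and it stood at rank 356 of the table. Here and below, ± is the SD over the 3 libraries (n = 3). The log2 ratios between related genes are the exception: there ± is the SE from limma.

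Levels of different genes can be compared only per length, so each CPM was divided by the kilobases of all annotated exons of the gene merged. On this scale the median of all genes with a count and an exon length was 4.92 CPM per kilobase. Of the 67 members with a count, 52 lay above that median gene, 11 below and 4 were unresolved (edgeR's test against the median gene, adjusted p under 0.05), where 48.1% of all genes lay above and 48.2% below. The median member stood at 12.4 CPM per kilobase. The 11 below were Sec31b, Sec16b, Sec24a, Sec22a, Tmed6, Copz2, Cog7, Golgb1, Golga4, Golga1 and Golga3. The yardstick matters here: with the median taken over genes of 10 counts or more, the median gene stood higher by 0.59 on the log2 scale, and 46 members lay above it and 17 below. The shares of all genes given above belong to the lower median, and none is given for this one.

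**Figure D1:**
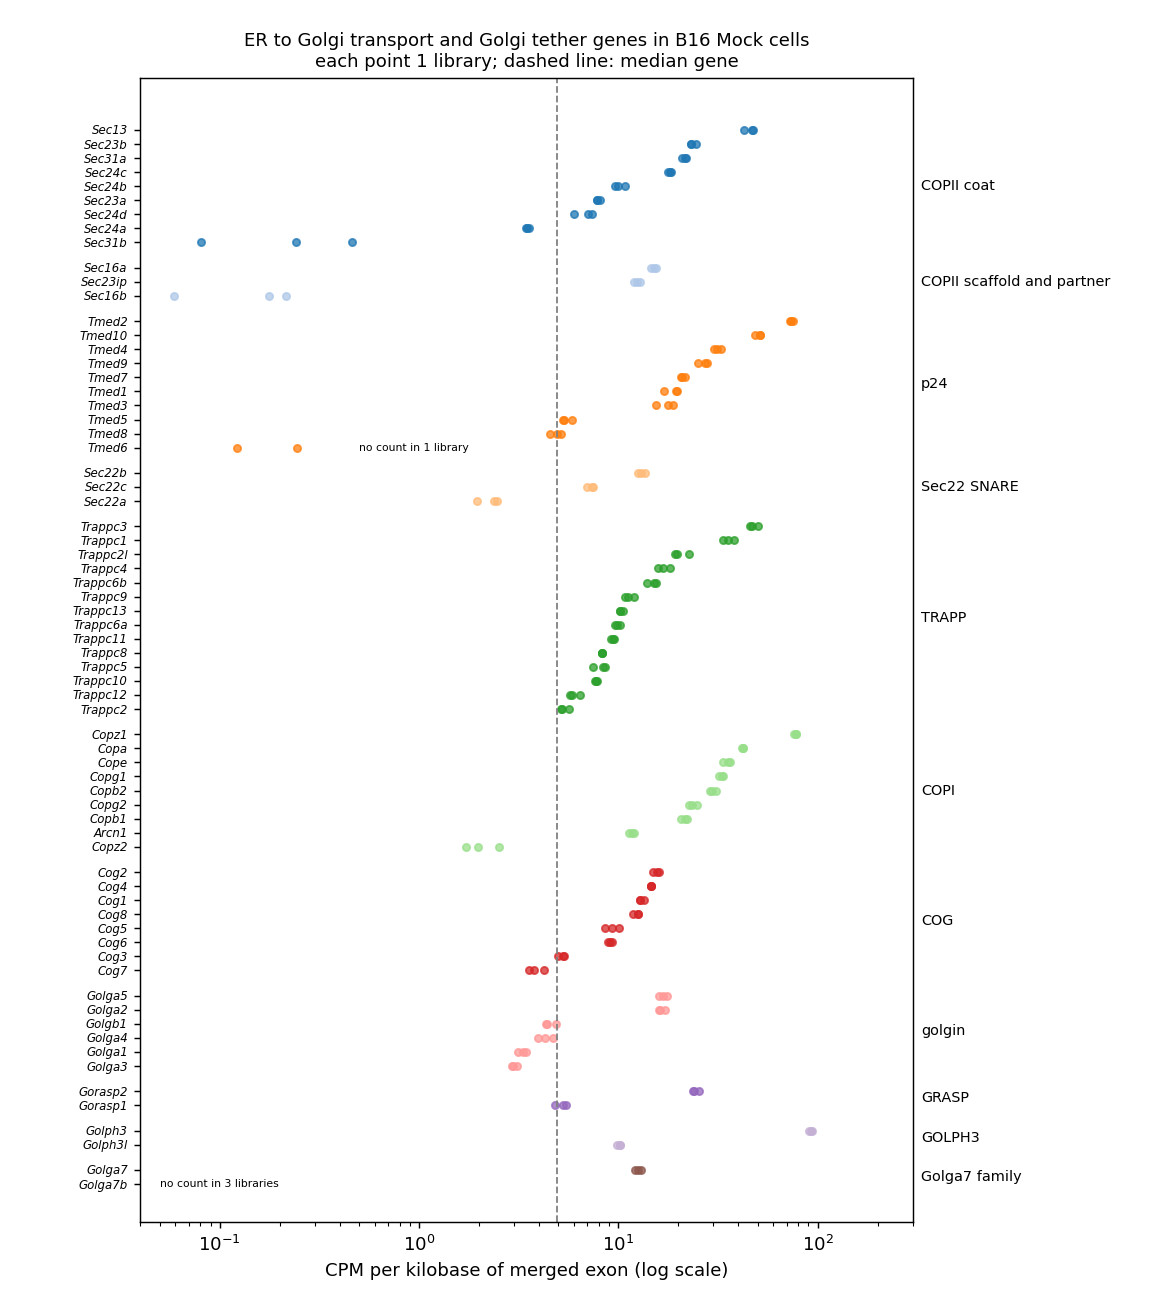
CPM per kilobase of merged exon (horizontal, log scale) of each of the 68 genes, grouped by role, with 1 point for each of the 3 Mock libraries and the median gene of 4.92 as a dashed line. Most points of a gene nearly coincide, and Sec31b, Sec16b, Tmed6 and Copz2 lie far to the left of their groups; Golga7b had no count.

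Among the 6 roles with at least 6 genes, COPI had the highest median level and golgins the lowest. The COPI median was 30.97, 29.7 and 28.9 CPM per kilobase in replicates 1, 2 and 3, and that of the p24 adaptors was 19.0, 20.1 and 20.6. COG genes gave 10.96, 10.93 and 10.91, the COPII coat 10.8, 9.63 and 10.02, and TRAPP 10.2, 10.06 and 10.1. The golgin median was 4.77, 4.30 and 4.16. In every library COPI stood above p24, p24 above the next 3 groups, and golgins last. The COPII coat was above TRAPP in replicate 1 and below it in replicates 2 and 3. Relative to the median gene, the group medians were 6.07-fold for COPI, 4.05-fold for p24, 2.22-fold for COG, 2.06-fold for the COPII coat, 2.06-fold for TRAPP and 0.897-fold for golgins. No test was made of these medians.

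The order of the middle groups depended on how length was counted. Per kilobase of the longest transcript, the fold over the median gene was 6.30 for COPI, 3.98 for p24, 2.60 for TRAPP, 2.18 for COG, 1.74 for the COPII coat and 0.918 for golgins. Per kilobase of the longest coding sequence it was 6.86, 5.59, 2.84, 1.48, 1.08 and 0.553 in the same order of groups. COPI thus came first and golgins last under all 3 lengths, while TRAPP moved past COG and the COPII coat. By reads alone, without length, COPI stood first at a median of 174 CPM and TRAPP last at 48.5 CPM, with golgins at 55.4 CPM.

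**Figure D2:**
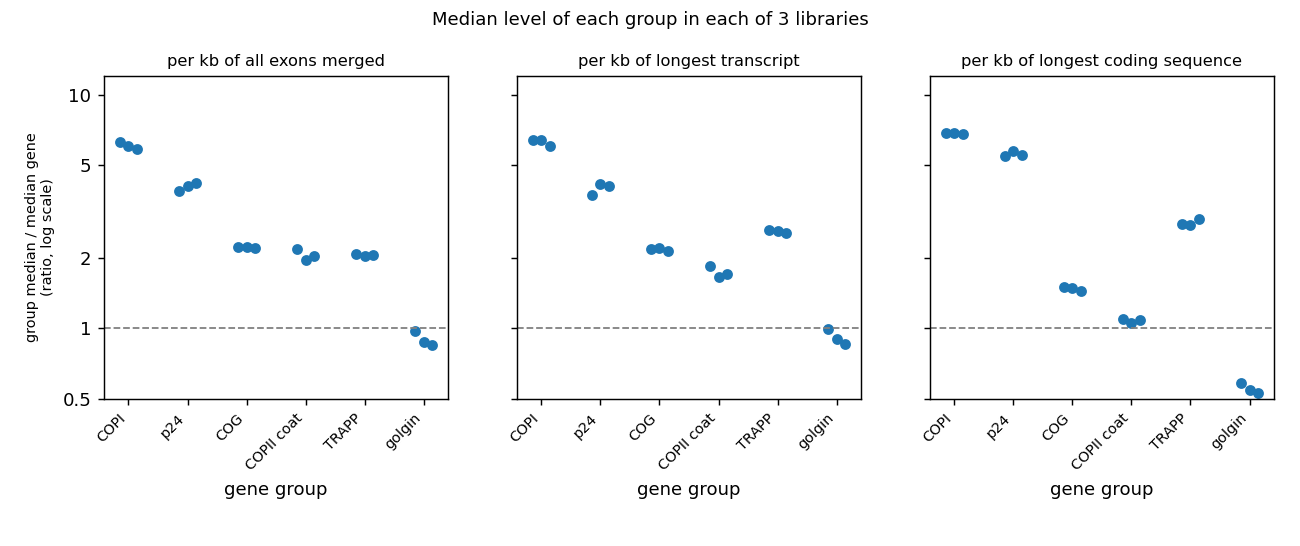
Median level of 6 gene groups divided by the level of the median gene (vertical, ratio on a log scale), with 1 point for each of the 3 libraries and 1 panel for each definition of gene length; the dashed line marks the median gene. COPI is highest and golgins lowest in all 3 panels, and TRAPP stands at 2.06, 2.60 and 2.84 from left to right.

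COPII forms in layers. The GTPase Sar1 recruits Sec23 and Sec24, the inner coat, whose Sec24 subunit binds cargo, and Sec13 with Sec31 builds the outer cage. Sec13, which also belongs to the nuclear pore, was the most abundant COPII gene per length, at 42.95, 47.3 and 47.1 CPM per kilobase in replicates 1, 2 and 3. Its 3 values lay above those of every other COPII gene, and it stood 9.31-fold above the median gene (edgeR adjusted p = 1.47e-12). Sec31a, its partner in the cage, was lower at 21.97, 20.9 and 21.5 CPM per kilobase. The lowest of the coat was Sec31b, the other Sec31 gene, with 17, 3 and 9 reads in replicates 1, 2 and 3. That is 1.03 ± 0.752 CPM, which could not be told from 1 CPM (edgeR adjusted p = 0.927). Of its 29 reads, 17 came from replicate 1. Its log2 distance from 1 CPM was 0.04 with all libraries and -0.66 without that one, with no call either way.

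The 4 Sec24 isoforms, which select different cargo, were all transcribed, and none made up the whole family. Sec24c gave 18.4, 18.2 and 17.8 CPM per kilobase in replicates 1, 2 and 3, Sec24b 10.8, 9.63 and 10.02, Sec24d 7.42, 7.04 and 6.02 and Sec24a 3.45, 3.48 and 3.58. The ranges of the isoforms did not overlap, and the order Sec24c, Sec24b, Sec24d, Sec24a was the same in all 3 libraries. In shares of the family's summed level per kilobase, Sec24c held 46.98 ± 0.869%, Sec24b 26.3 ± 1.001%, Sec24d 17.7 ± 1.35% and Sec24a 9.09 ± 0.482%. The log2 ratio to Sec24a was 2.37 ± 0.04 for Sec24c, 1.53 ± 0.04 for Sec24b and 0.96 ± 0.05 for Sec24d (± SE, limma). With the longest transcript as length these ratios were 2.17, 1.06 and 0.95, and with the longest coding sequence 1.60, 0.50 and 0.28. The order held under all 3 lengths, and the 3 ratios were smallest over coding sequence. Sec24d was also the COPII gene with the widest range between libraries among those with a mean of at least 10 counts, highest over lowest 1.23. It lay above the median gene per kilobase of merged exon, and below it per kilobase of coding sequence (log2 -0.17, edgeR adjusted p = 0.0188).

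Of the Sec23 pair, which stimulates GTP hydrolysis by Sar1, Sec23b predominated. It gave 23.1, 24.5 and 23.2 CPM per kilobase, against 7.79, 7.82 and 8.11 for Sec23a. The values of the pair did not overlap, and Sec23b held 74.9 ± 0.879% of their summed level, with a log2 ratio of 1.57 ± 0.04 to Sec23a. The ratio was wider with the longest transcript as length, at 2.35. Sec16a, the scaffold on which exit sites assemble, stood at 15.2, 14.6 and 15.5 CPM per kilobase and Sec23ip, a Sec23-binding protein of exit sites, at 12.4 ± 0.432. Sec16b, the shorter relative of Sec16a, had only 9, 11 and 3 reads in replicates 1, 2 and 3, or 0.815 ± 0.442 CPM, and was unresolved against 1 CPM (edgeR adjusted p = 0.461). Against Sec16a its log2 ratio per kilobase was -6.72 ± 0.33 (SE), that is, 106-fold lower. The ratio was -6.34, -6.02 and -7.82 in replicates 1, 2 and 3.

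The p24 proteins span the membrane, pair with one another and link cargo, such as GPI-anchored proteins, to the coats. Tmed2 and Tmed10, the sole members of the beta and delta subfamilies, were the most abundant. Tmed2 gave 73.8, 72.4 and 75.3 CPM per kilobase in replicates 1, 2 and 3, and Tmed10 51.3, 48.7 and 51.3. Both stood above every other p24 gene in each library, at 15.01-fold and 10.3-fold over the median gene. Over their longest transcripts they came to nearly the same level, 89.9 for Tmed2 and 92.1 for Tmed10. Tmed2 had fractional counts and shared 24.7% of its 31-base words with other annotated genes, mostly with the gene model Gm10698, so its level is uncertain to that extent.

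In the alpha subfamily, Tmed9 gave 25.1, 27.9 and 27.2 CPM per kilobase, against 32.8, 31.4 and 30.4 for Tmed4. Tmed9 was lower in each of the 3 libraries (log2 ratio -0.24 ± 0.05, limma adjusted p = 1.63e-06), but the direction turned with the length used, to 0.28 per kilobase of the longest transcript and 0.37 per kilobase of coding sequence. Neither gene can therefore be placed above the other. The gamma subfamily was mixed. Tmed7 stood at 20.996, 20.8 and 21.5 CPM per kilobase, Tmed3 at 15.5, 18.8 and 17.7, Tmed5 at 5.34, 5.87 and 5.26 and Tmed1 at 17.02, 19.4 and 19.8. Against Tmed1 the log2 ratio of Tmed3 was -0.11 ± 0.09 and did not pass the test (limma adjusted p = 0.207), and it was 0.67 per kilobase of the longest transcript. That of Tmed5 was -1.77 ± 0.09, and it was 0.56 per kilobase of coding sequence, where the direction was the opposite. Tmed5 was called above the median gene (log2 0.16). With the median taken over the same genes, the call was lost without replicate 1 (log2 0.17, edgeR adjusted p = 0.0886) or replicate 2 (log2 0.11, edgeR adjusted p = 0.0751). The log2 ratio of Tmed7 to Tmed1 was 0.17 ± 0.08 (limma adjusted p = 0.0372) and missed the threshold without replicate 2 (0.243) or replicate 3 (0.182). It was far wider per kilobase of coding sequence, at 2.73, and 2.71 without length, so how far apart this pair stands rests on the length used. The exception in the subfamily was Tmed6, with 0, 1 and 2 reads in replicates 1, 2 and 3. It was the only member called below 1 CPM (edgeR adjusted p = 0.00147). Tmed8, which shares the family's GOLD domain, could not be told from the median gene, at 4.88 ± 0.301 CPM per kilobase (edgeR adjusted p = 0.814). Per kilobase of the longest transcript it was below that gene (log2 -0.49, edgeR adjusted p = 6.9e-06). Per kilobase of coding sequence it was above (log2 1.24, edgeR adjusted p = 1.47e-08). Against the median of genes with at least 10 counts it was below (log2 -0.60, edgeR adjusted p = 1.11e-10).

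Sec22b, the SNARE that drives fusion of ER-derived and retrograde carriers, gave 12.5, 12.96 and 13.6 CPM per kilobase, its relative Sec22c 6.98, 7.396 and 7.45 and Sec22a 1.96, 2.37 and 2.48. The 3 ranges did not overlap. Sec22b held 57.7 ± 0.6904%, Sec22c 32.2 ± 0.512% and Sec22a 10.03 ± 0.778% of the summed level per kilobase. Sec22a, at a log2 distance of -1.11, lay below the median gene (edgeR adjusted p = 7.63e-07).

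TRAPP complexes tether carriers and activate the Rab1 and Rab11 class of GTPases. All 14 TRAPP genes were above 1 CPM, and 13 of them lay above the median gene. The small subunits of the shared core led. Trappc3 gave 46.7, 50.04 and 45.8 CPM per kilobase in replicates 1, 2 and 3, and Trappc1 35.6, 33.6 and 38.2. Both were above the other 12 TRAPP genes in every library. The median of the 8 core genes was 15.6, 16.6 and 15.3 CPM per kilobase in replicates 1, 2 and 3. That of Trappc9 and Trappc10, which mark TRAPPII, was 9.78, 9.53 and 9.24, and that of Trappc8, Trappc11, Trappc12 and Trappc13, which mark TRAPPIII, 8.88, 8.74 and 8.93. The core range, 5.35 to 47.5 CPM per kilobase, spans the values of both sets. The lowest TRAPP gene was Trappc2, known as sedlin, at 5.25, 5.15 and 5.65 CPM per kilobase, and it was unresolved against the median gene (log2 0.12, edgeR adjusted p = 0.0747). It was above that gene per kilobase of the longest transcript (log2 0.26, edgeR adjusted p = 0.00213) and of coding sequence (log2 1.57, edgeR adjusted p = 1.22e-08). Its relative Trappc2l gave 19.7, 19.2 and 22.7 CPM per kilobase and was higher in each library (log2 ratio to Trappc2 1.94 ± 0.07). The ratio was 1.05 per kilobase of coding sequence. Trappc6b, at 15.4, 15.1 and 13.9 CPM per kilobase, stood above the alternative subunit Trappc6a at 10.2, 9.87 and 9.68 (log2 ratio 0.58 ± 0.05, limma adjusted p = 5.41e-14).

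COPI is a coat of large and small subunits named by Greek letters. Its gene group held 30.1% of all reads of the 68 genes. Copz1, for the small zeta subunit, was the highest per length at 76.5, 77.9 and 77.7 CPM per kilobase in replicates 1, 2 and 3. Golph3 was the only other member with a mean above 75 CPM per kilobase. Copa followed at 42.2 ± 0.261, Cope (epsilon) at 35.2 ± 1.31, Copg1 (gamma) at 32.9 ± 0.919, Copb2 (beta prime) at 29.9 ± 1.02, Copg2 at 23.6 ± 1.03 and Copb1 (beta) at 21.5 ± 0.704 CPM per kilobase. Arcn1, for the delta subunit, was lower at 12.02, 11.7 and 11.3. Its annotated exons merge to 14915 bases where its longest transcript has 4072, and per kilobase of that transcript it stood at 42.8, level with Cope at 42.8 and above Copb1 at 35.9. The low place of Arcn1 thus holds only for merged exons.

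The lowest COPI gene was Copz2, the other zeta gene, on chromosome 11 (96849870 to 96861203, plus strand, GRCm38). In human tumour cells COPZ2 is often silenced, which leaves COPZ1 as their zeta subunit. Copz2 had 52, 36 and 41 reads in replicates 1, 2 and 3, or 2.52, 1.73 and 1.97 CPM per kilobase, against 76.5, 77.9 and 77.7 for Copz1. The pair was far apart in every library. Copz2 held 2.61 ± 0.5202% of their summed level, at a log2 ratio of -5.22 ± 0.15, or 37.4-fold lower than Copz1. It was nevertheless above 1 CPM, while its log2 distance from the median gene was -1.25 (edgeR adjusted p = 1.21e-05). The gamma pair was closer. Copg2 gave 22.7, 24.8 and 23.4 CPM per kilobase and Copg1 33.3, 33.6 and 31.9. Copg2 was lower in each library, with a log2 ratio of -0.48 ± 0.04, which widened to -1.15 per kilobase of the longest transcript. Copg2 had fractional counts and overlaps the exons of Mest on the opposite strand by 912 bases, so part of its reads cannot be assigned with certainty.

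COG is the tether that returns Golgi enzymes between cisternae, and its loss in patients disturbs glycosylation, sialylation included. All 8 genes were above 1 CPM, and 6 lay above the median gene. The subunits of lobe A were Cog2 at 14.9, 15.6 and 16.005 CPM per kilobase in replicates 1, 2 and 3, Cog4 at 14.6 ± 0.0733, Cog1 at 13.1 ± 0.382 and Cog3 at 5.18 ± 0.188. Those of lobe B were Cog8 at 12.3 ± 0.424, Cog5 at 9.35 ± 0.762, Cog6 at 9.06 ± 0.236 and Cog7 at 3.77, 3.56 and 4.24 in replicates 1, 2 and 3. Cog2 was highest and Cog7 lowest, 4.02-fold apart, and their values did not overlap. Per kilobase of the longest transcript, Cog3 stood below Cog7, at 6.23 against 7.46, so the lowest place depends on the length. Cog3 could not be told from the median gene (edgeR adjusted p = 0.176). It was below that gene per kilobase of the longest transcript (log2 -0.14, edgeR adjusted p = 0.023) and of coding sequence (log2 -0.54, edgeR adjusted p = 3.04e-06). Per kilobase of merged exon, Cog7 lay below the median gene (log2 -0.35, edgeR adjusted p = 0.000367). Per kilobase of the longest transcript Cog7 was at 0.12 above it, without a call (edgeR adjusted p = 0.0865). Cog8 shares 28.0% of its 31-base words with other genes, mainly with its same-strand neighbour Pdf, Cog5 shares 23.2%, mainly with Hbp1, and Cog1 20.5%, mainly with Fam104a, so these 3 levels are uncertain.

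Golgins are long coiled-coil proteins that capture carriers at different parts of the Golgi. Golga5, at 17.5, 16.8 and 16.03 CPM per kilobase in replicates 1, 2 and 3, and Golga2 (GM130, the tether of the cis face), at 17.2, 16.2 and 16.04, overlapped in their ranges. Per kilobase of merged exon both stood at least 3-fold above the other 4. Golgb1 (giantin) gave 4.52 ± 0.287, Golga4 4.31 ± 0.3801, Golga1 3.300 ± 0.149 and Golga3 3.12, 2.98 and 2.95 CPM per kilobase. These 4 lay below the median gene, at -0.12, -0.19, -0.58 and -0.71 on the log2 scale. The call of Golgb1 was marginal (edgeR adjusted p = 0.0235) and was lost with DESeq2's Wald test (adjusted p = 0.0705). With the median taken over the same genes, the calls of Golgb1 and Golga4 were also lost without replicate 2 (edgeR adjusted p of 0.209 and 0.106) or replicate 3 (0.187 and 0.0791). Golga4 was above the median gene per kilobase of the longest transcript (log2 0.17, edgeR adjusted p = 0.00928). On that length it stood at 7.73, against 17.1 for Golga5 and 20.7 for Golga2. By reads, Golga4 was at 58.6 CPM and Golga5 at 57.8 CPM, so the size of their gap depends on the length. All 6 golgin genes were above 1 CPM.

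The Golgi stacking proteins differed in level. Gorasp2 gave 24.1, 23.8 and 25.5 CPM per kilobase and Gorasp1 4.79, 5.45 and 5.27. Gorasp2 held 82.6 ± 1.07% of the pair's level and was higher in each library (log2 ratio 2.24 ± 0.07). Gorasp1 had fractional counts and shared 31.6% of its words with other genes, mainly Wdr48 on the opposite strand. Its level was unresolved against the median gene (edgeR adjusted p = 0.262).

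Golph3 binds phosphatidylinositol 4-phosphate and the tails of Golgi glycosyltransferases, and links them to COPI for retention. At 93.7, 90.3 and 92.6 CPM per kilobase in replicates 1, 2 and 3 it was the highest of all 68 genes, 18.7-fold above the median gene. Its relative Golph3l gave 9.82, 10.1 and 10.2. Golph3l held 9.83 ± 0.314% of their summed level and was 9.17-fold lower than Golph3, with a log2 ratio of -3.20 ± 0.06. Per kilobase of the longest transcript, Copz1 stood above Golph3, at 116 against 106, so the first place depends on the length. Golga7, which despite its name is a partner of a protein palmitoyltransferase and no golgin, gave 12.2, 12.6 and 13.01 CPM per kilobase. Golga7b (chromosome 19, 42247574 to 42270348, plus strand, GRCm38) had no count in any library, which allows up to 0.106 CPM (3 counts over the group, counting error only).

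Across the 13 families with a ratio, 18 of 19 paralogs differed from the first-named gene of their family per kilobase (limma adjusted p under 0.05). Of all genes set against the same first-named genes, 97.1% differed, so the count itself says little, and the sizes matter more. In 5 families the second gene made up under 10% of the level: Copz2, Sec16b, Sec31b, Golph3l and Golga7b. Golga7b had no count, so its family gave no ratio and is not among the 13. In the remaining families, Sec24, Sec22, Sec23, Copg, Trappc6, Trappc2, Gorasp and both Tmed subfamilies, at least 2 genes each held over 10%. Other ratios that moved by over 1.5 times with the length kept their direction. Over coding sequence the log2 ratio was -6.17 for Copz2, -1.58 for Copg2 and 1.40 for Trappc6b, and over the longest transcript it was 2.93 for Gorasp2 and -7.47 for Sec31b.

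**Figure D3:**
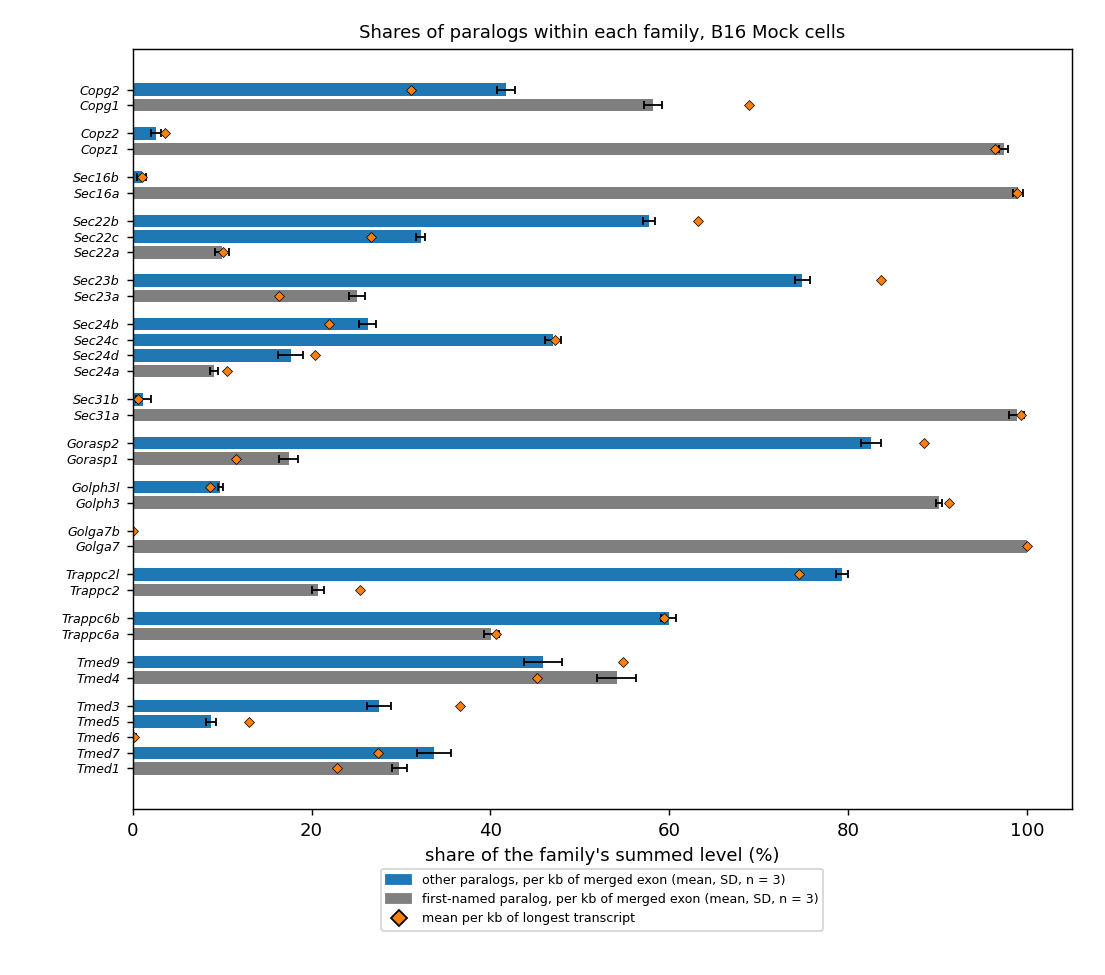
Share of each paralog in its family's summed level (horizontal, %), as bars for CPM per kilobase of merged exon (mean with SD over 3 libraries, first-named gene of each family in grey) and diamonds for the mean per kilobase of the longest transcript. Copz2, Sec16b, Sec31b and Golph3l hold 2.61%, 0.997%, 1.18% and 9.83%, while Sec24c holds 47.0% of its family.

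Promoter windows are shown for the zeta and the Sec16 pairs, in each of which 1 gene stood far below the other. They are the 250 bases before the start in RefSeq's GRCm38.p6 annotation, read 5′ to 3′ along the gene, with CG pairs in capitals. CG-rich windows are typical of broadly transcribed genes. They cover chr11:96849626-96849875 (plus strand) for Copz2 and chr15:103272638-103272887 (plus strand) for Copz1. For Sec16b the window is chr1:157506546-157506795 (plus strand, the first of 2 listed starts) and for Sec16a chr2:26445217-26445466 (minus strand). In the GENCODE M21 annotation Copz1 starts at 103272714, Sec16b at 157506728 and Copz2 at 96849870, each within its window.
Copz2: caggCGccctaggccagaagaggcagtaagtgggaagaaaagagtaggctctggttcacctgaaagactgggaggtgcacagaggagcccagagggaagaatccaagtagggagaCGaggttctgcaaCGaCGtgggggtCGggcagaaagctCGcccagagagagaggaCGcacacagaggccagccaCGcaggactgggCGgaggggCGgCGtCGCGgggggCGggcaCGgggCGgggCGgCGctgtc
Copz1: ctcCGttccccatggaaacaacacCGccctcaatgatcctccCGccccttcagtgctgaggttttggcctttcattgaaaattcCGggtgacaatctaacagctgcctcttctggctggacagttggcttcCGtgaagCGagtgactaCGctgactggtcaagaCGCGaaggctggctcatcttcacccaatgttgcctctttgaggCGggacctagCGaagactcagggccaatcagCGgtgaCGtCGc
Sec16b: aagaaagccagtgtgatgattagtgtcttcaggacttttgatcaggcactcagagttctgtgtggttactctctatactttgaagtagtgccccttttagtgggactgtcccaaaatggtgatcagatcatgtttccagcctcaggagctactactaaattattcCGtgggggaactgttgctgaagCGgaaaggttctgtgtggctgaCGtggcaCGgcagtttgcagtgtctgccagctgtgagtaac
Sec16a: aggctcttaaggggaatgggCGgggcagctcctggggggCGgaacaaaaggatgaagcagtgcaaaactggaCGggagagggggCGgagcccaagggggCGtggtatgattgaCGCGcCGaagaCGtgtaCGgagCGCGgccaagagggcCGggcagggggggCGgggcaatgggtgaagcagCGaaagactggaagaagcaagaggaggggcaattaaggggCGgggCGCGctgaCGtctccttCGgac
The Sec16b window holds 4 CG pairs and that of Sec16a 20. The zeta pair goes the other way, with 18 pairs in the window of the scarce Copz2 and 14 in that of Copz1. Both pairs were chosen for the low level of 1 gene. In the other such pairs, the Golph3l window holds 7 CG pairs and that of Golph3 34, and the Sec31b window holds 12, with 3 and 27 in the windows of Sec31a. The windows of Golga7b, which had no count, hold 2 and 15, and none was listed for Golga7. Windows were listed for 58 of the 68 genes, and their median was 15 CG pairs, against 13 over the 16764 windows of all table genes.

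Genes of ER to Golgi transport include known targets of the unfolded protein response, whose factor Xbp1 binds the sequence TGACGTGG. That sequence, searched on both strands, stood in 3 of the 65 windows of these genes (4.62%) and in 0.644% of all windows. The matches are given with 10 bases on each side and the motif in capitals. Copb1 holds it on the opposite strand (chr7:114254691-114254718, minus strand), and Sec24d (chr3:123267460-123267487, plus strand) and Sec16b (chr1:157506742-157506769, plus strand) on the strand of the gene.
Copb1: ccgcccccttCCACGTCAgccaaggact
Sec24d: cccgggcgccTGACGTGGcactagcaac
Sec16b: tctgtgtggcTGACGTGGcacggcagtt
Of these 3 genes, Copb1 stood above the median gene (4.38-fold), as did Sec24d (1.39-fold), and Sec16b stood far below it. The longer ER stress response element, CCAAT and CCACG with 9 bases of any kind between them, was in 0 of the 65 windows and in 0.125% of all windows, and CCAAT alone, which is part of it, in 40.0% and 35.0%. These matches describe letters only. In the GENCODE M21 annotation the 3 genes start upstream of these sites, at 114254711 for Copb1, 123267455 for Sec24d and 157506728 for Sec16b. The place of the sites before the start thus holds for the RefSeq starts only.

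Of 59 other genes of the pathway, 57 were above 1 CPM, 1 was below and 1 had no count. Of all genes tested, 74.3% were above 1 CPM and 20.2% below. Among GTPases and their regulators, 16 of 16 were above, led per length by Arf1, the GTPase that recruits COPI, at 238 ± 4.93 CPM per kilobase, then Rab2a at 97.1 ± 2.596 and Arf5 at 83.6 ± 4.55. All 15 cargo receptors were above, led by Bcap31 at 177 ± 6.96, the KDEL receptor gene Kdelr3 at 156 ± 3.29 and Surf4 at 128 ± 3.47. So were all 14 SNAREs and tethers, with Gosr2 at 68.1 ± 0.641, Ykt6 at 47.1 ± 1.07 and Zw10 at 19.7 ± 1.003, and the 5 further golgins, with Gcc1 at 17.2 ± 1.28, Tmf1 at 11.3 ± 0.625 and Trip11 at 7.93 ± 0.197. The exit site genes Tfg and Mia3 gave 75.6 ± 1.63 and 24.2 ± 0.808. Mia2 had 1 read in all and was below 1 CPM. Of 6 transcription factors of secretory genes, 5 were above 1 CPM, with Xbp1 at 63.3 ± 2.21, Creb3 at 15.8 ± 0.628 and Creb3l2 at 15.4 ± 0.678 CPM per kilobase, and Creb3l3 had no count. The further golgins had a median of 7.93 CPM per kilobase. The call of Mia2 was lost with DESeq2's Wald test (adjusted p = 0.0692).

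The 3 libraries were close to each other. A Poisson deviance test called 0 of the 64 members with a mean of at least 10 counts as varying (Benjamini-Hochberg adjusted p under 0.05), where 3.31% of all genes tested were called. At an unadjusted p under 0.05 there were 6: Tmed3, Sec24d, Golga4, Sec13, Cog5 and Trappc2l. The share of all genes at that unadjusted level is not given here. Tmed3 had the lowest p (0.0098, adjusted 0.149), with 44.0, 53.6 and 50.5 CPM in replicates 1, 2 and 3. Below 10 counts on average, Sec31b had an unadjusted p of 0.00408 (adjusted 0.104) when all genes with a count were tested. Which library was highest differed by group, though no member was called as varying. All 6 golgins were highest in replicate 1, against 33.4% of all genes tested. In replicate 3, 8 of 14 TRAPP and 5 of 9 p24 genes were highest, against 3681 of all 11000 genes tested. Of the 9 COPI genes, 6 were highest in replicate 2, against 3642 of all genes tested, and 0 in replicate 3. Of the 8 COPII coat genes tested, 4 were highest in replicate 1. The COG genes split 1, 3 and 4 over replicates 1, 2 and 3. Long transcripts moved the same way as the golgins: of genes whose longest transcript has 4920 bases or more, 40.0% were highest in replicate 1, and of those with 2299 bases or fewer 26.6%. The pattern was noticed after the values were seen, and the part of transcript length in it was not tested.

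**Figure D4:**
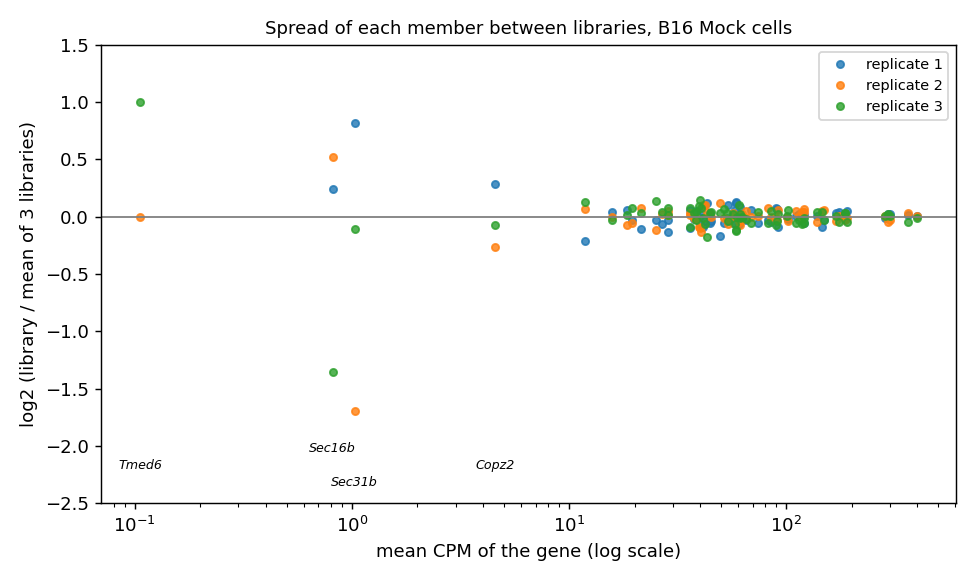
Log2 of each library's CPM over the mean of the 3 libraries (vertical) against the mean CPM (horizontal, log scale) for the 67 genes with a count; libraries with no count of a gene are not drawn. Genes above 10 CPM lie close to 0, and the wide spread is at Tmed6, Sec16b, Sec31b and Copz2, the genes with the fewest reads.

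The counts of 13 members were fractional in at least 1 library, as can arise where a counter splits ambiguous reads. Their median share of 31-base words in common with other annotated genes was 11.1%, against 1.28% for the 55 members with whole counts. Exons of 25 members overlap those of another gene on either strand. Whether counting used strand is not known here, so reads of such pairs cannot be told apart, among them those of Trappc4 and Rps25, Gorasp1 and Wdr48, and Golph3 and the gene model 1810049J17Rik.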

How the data were processed

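RNA was sequenced from 3 samples of B16 cells with a stable empty vector. The deposited table holds expected counts per gene symbol, with fractional values in 13.1% of rows. The submitters' processing notes name GRCm38.p6 as the genome. Neither the aligner nor the counter, annotation or strand setting is named: not given in the sources used here. Expected counts were rounded to whole numbers before testing.

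Levels were tested against 1 CPM and against the median gene per kilobase with edgeR 4.0.16 (quasi-likelihood F test, intercept only, TMM scaling). Paralog ratios within a library were tested with limma 3.58.1 on log2 CPM with a pseudocount of 0.5. Spread between libraries was tested by Poisson deviance in genes averaging 10 counts or more. All p-values were two-sided except the deviance test and were adjusted by Benjamini-Hochberg over all genes. Exon lengths came from GENCODE M21 on GRCm38, with all 68 members matched by symbol. The steps were also run on simulated counts, and the outcome is not given here. DESeq2 1.42.0 served as an alternative, beside other scalings, filters, lengths, pseudocounts and CPM levels and leaving out each library (with the median gene also held over the same genes, chosen after seeing the data). Limits for genes with no count use 3 counts and cover counting error only.

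Values by library are given for the highest and lowest gene of each role, for every paralog and for genes not above 1 CPM. Of the other pathway genes, the 3 highest of each kind and those not above 1 CPM are named. Members and lists were chosen with earlier results of these data known.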

Additional observations from a re-analysis of the deposited data

How the results depend on the processing

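No paired analysis was possible because the samples form 1 group. Depth limits the scarce genes: 1 CPM corresponds to 28.2 reads over the 3 libraries. Members below 1 CPM numbered 0 among genes with at least 10 counts, where Tmed6 was not tested, and 3 against 2 CPM. The shares of all genes under these settings are not given. Members below the median gene numbered 17 with at least 10 counts, with no share of all genes given beside it. Group medians per kilobase of the longest transcript were 43.22 for COPI, 27.31 for p24, 17.81 for TRAPP, 14.98 for COG, 11.93 for the COPII coat and 6.298 for golgins. Per kilobase of coding sequence they were 107.5, 87.66, 44.53, 23.18, 16.95 and 8.675 in that order, and in CPM without length 174.4, 59.03, 48.49, 57.1, 61.02 and 55.42. Leaving out 1 library moved the COG median between 10.9 and 10.95 CPM per kilobase.

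Directions turned for single genes. Against the median of genes with at least 10 counts, the log2 distance was -0.47 for Trappc2, -0.52 for Gorasp1, -0.52 for Cog3, -0.12 for Sec24d, -0.026 for Sec22c, -0.30 for Trappc12 and -0.43 for Tmed5, where the higher median itself accounts for the shift. Sec16b was at 0.70 against 0.5 CPM and Sec31b at -0.96 against 2 CPM. Per kilobase of the longest transcript, Gorasp1 was at -0.32, Cog3 at -0.14, Cog7 at 0.12 and Golga4 at 0.17, the ratio of Tmed9 to Tmed4 was 0.28 and that of Tmed3 to Tmed1 0.67. Per kilobase of coding sequence, Tmed8 was at 1.24, Cog3 at -0.54 and Sec24d at -0.17, with ratios of 0.37 for Tmed9, 0.83 for Tmed3 and 0.56 for Tmed5. Without length these 3 ratios were 0.42, 0.79 and 0.57. Leaving out 1 library, Sec16b ranged from -0.6448 to 0.09028 and Sec31b from -0.655 to 0.4707 against 1 CPM. Leaving out a library also drops genes left with no count, which raised the median gene by 0.089 to 0.11 on the log2 scale. Against it, Trappc2 ranged from -0.01433 to 0.06074, Gorasp1 from -0.05419 to 0.007299, Cog3 from -0.03933 to -0.01211 and Tmed8 from -0.148 to -0.08163. With the median held over the same genes, an alternative chosen after seeing the data, they ranged from 0.08587 to 0.1517, 0.03678 to 0.1194, 0.06087 to 0.1 and -0.04777 to 0.03048, and 51 to 52 members lay above and 9 to 11 below. No share of all genes is given for these fits. Without replicate 1, the calls of Sec24d and Trappc12 above the median gene were lost where that gene moved (edgeR adjusted p of 0.057 and 0.0536) and kept where it was held. Beyond the change of length or yardstick, the cause was not tested.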
